A study of Mus musculus with 15 samples.

Results

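The comparison described here sets cells that carried the fluorescent reporter of an Igf1-Egfp transgene against cells that did not, sorted from the mouse forebrain on day 6 after stroke. Its members are 2 of the 15 libraries of the study, 1 EGFP-positive and 1 EGFP-negative, chosen by their labels, and all 24421 genes of their count table were looked at. Because each reporter state has 1 library, no p-value or standard error is given anywhere, and the values describe these libraries.

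The study profiled RNA from mouse microglia after the middle cerebral artery had been closed for a limited time. Besides the reporter mice on days 6 and 14, it covered wild-type C57BL/6J mice after sham surgery and on days 1, 6, 14 and 28, and floxed Yy1 mice with and without Cx3cr1-CreER on day 6. Male mice of 8 to 24 weeks had the artery blocked for 60 minutes and then reopened. Both groups used here share the Igf1-Egfp transgene, the surgery and the day, and the sort for intermediate CD45 and CD11b, with CD31 stained as well, and differ by the EGFP gate alone in the labels.

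The labels do not give the design of the transgene, how many mice went into a library or whether both fractions came from the same mice. EGFP reports the transgene and not the Igf1 protein. The antibody to CD45 named in the protocol carries FITC, a dye with emission close to that of EGFP, and the labels do not say how the signals were separated in reporter mice. The wild-type day 6 library and the libraries of sham and day 1 stand in the same table and are given beside the results as single libraries. The 3 day 6 libraries of Yy1flox/flox mice without Cre, called floxed controls, stand in another table and show how far libraries of 1 group lay apart.

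Microglia are the resident macrophages of the brain. After ischemia they take up dying cells and myelin, break them down in lysosomes and hand on the lipid to apolipoprotein E particles, and a part of them makes insulin-like growth factor 1 (IGF1), a secreted hormone that acts on neurons, glia and vessels through a receptor tyrosine kinase. Genes of this state, among them Spp1, Gpnmb, Apoe and Lpl, are known from disease-associated microglia around plaques and injured axons. Blood neutrophils and monocytes enter the injured forebrain in the same days and carry CD45 and CD11b too.

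Levels are counts per 1e6 counts (CPM) after TMM scaling, which corrects library sizes for a few very abundant genes. Differences are log2 ratios of CPM plus 1, EGFP-positive over EGFP-negative, so a positive value means a higher level with EGFP. A gene was considered at 20 CPM or more in at least 1 of both libraries, and is called higher or lower at an absolute log2 ratio of 1 or more. A gene near 20 CPM is considered only through the library where it is high, so counts of called members carry that bias.

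Igf1 itself, on chr10:87858265-87937047 of GRCm38, checked the labels. It stood at 49.5 CPM in the EGFP-negative and 813 CPM in the EGFP-positive library, a log2 ratio of 4.01. The ratio of scaled counts was 16.4-fold (95% counting interval 15.4 to 17.6), an interval for counting error only. The wild-type day 6 library lay between both at 231 CPM, and sham was at 2.36 CPM. The 3 floxed controls had 122, 167 and 168 CPM in their own table, where the largest difference between any pair was 0.45 on the log2 scale.

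Markers of microglia were present in both fractions. Of 26 homeostatic microglia genes considered, 22 were not called, 4 were lower and 0 higher, with a median log2 ratio of -0.32. Over all genes considered 11.9% were lower and 7.53% higher, so the share of lower genes on this list was near that background. The purinergic receptor gene P2ry12 stood at 1232 against 645 CPM, Tmem119 at 210 against 185 CPM and the fractalkine receptor gene Cx3cr1 at 1115 against 1338 CPM, negative before positive. None of these 3 was called, while the lectin gene Siglech (-1.87), the fructose transporter gene Slc2a5 (-1.26) and the transcription factor gene Sall1 (-1.18) were lower with EGFP. The summed level of the list was 18059 CPM without and 15973 CPM with EGFP, against 29879 CPM in wild-type day 6 and 57294 CPM in sham.

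The EGFP-negative library also held RNA of blood cells. The 17 neutrophil genes in the table summed to 12956 CPM there, against 445 CPM with EGFP and 898 CPM in wild-type day 6, and the 18 genes of monocytes and recruited macrophages to 7242, 3217 and 1639.5 CPM. Of these monocyte sums, Fn1 made up 1346, 779 and 1361 CPM and Thbs1 814, 1564 and 129.7 CPM. Neither of these genes was called, and together they were most of the sum with EGFP and in wild-type day 6. Dendritic cell genes summed to 896 CPM without and 355 CPM with EGFP, but also to 783 CPM in wild-type day 6 and 1565.5 CPM in sham. Siglech, which is on the homeostatic list too, made up 358, 96.8, 490.04 and 1275 CPM of these sums. Tcf4, not called, made up 197, 251, 272 and 265 CPM, and together they were most of each sum. Of 7 dendritic cell genes considered, 6 were lower with EGFP and 0 higher. Among these, Flt3 and Cd209a stood at 124 and 61.01 CPM without EGFP, 2.26 and 0.58 CPM in wild-type day 6 and 0.77 and 0.15 CPM in sham. Genes used for border-associated macrophages, which line vessels and meninges, summed to 987 CPM without and 3537 CPM with EGFP, of which the scavenger receptor gene Stab1 made up 364 and 2392 CPM. In sham, Stab1 stood at 822 CPM of a sum of 853 CPM. In bulk RNA, fewer cells of a type and less RNA per cell cannot be told apart, and the part of these cells in the results below was not tested.

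**Figure D1:**
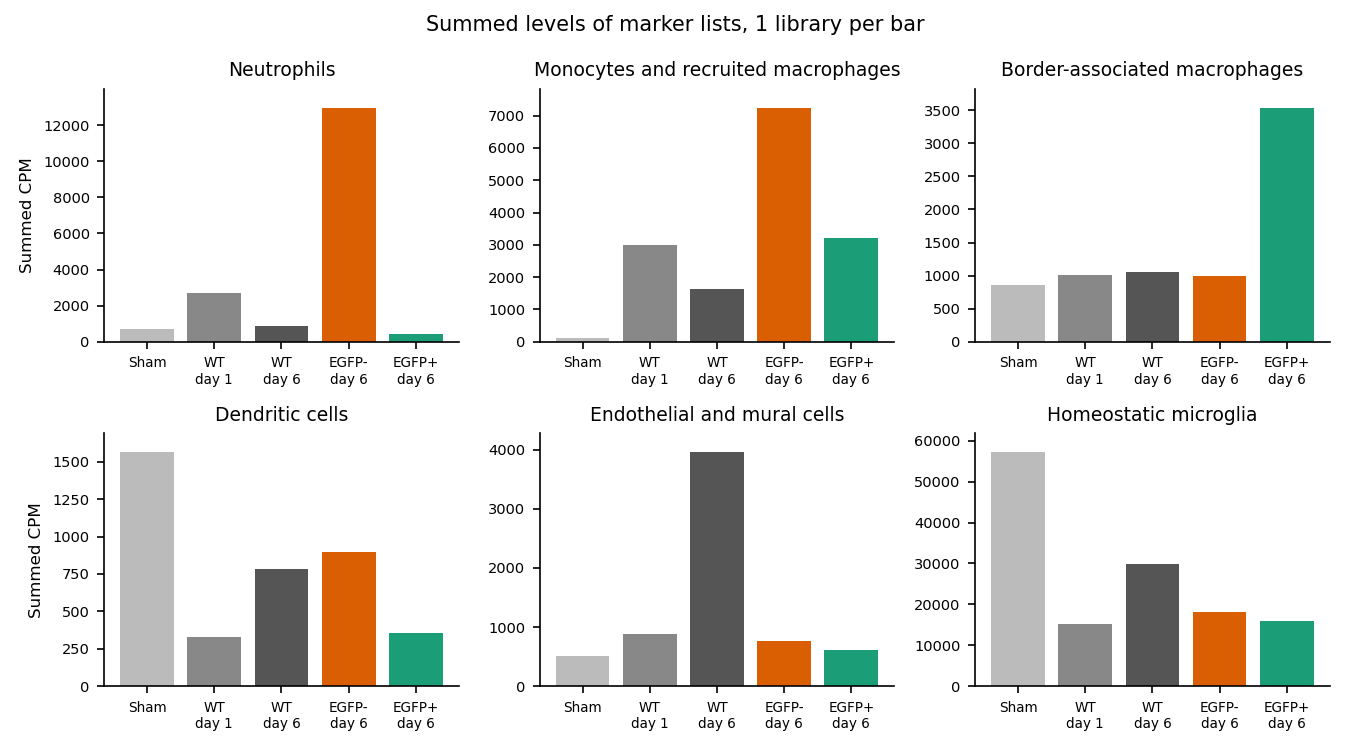
Summed CPM (vertical axis, linear from 0) of 6 marker lists in 5 libraries of the same table (horizontal axis), 1 library per bar and so without error bars. Neutrophil genes reached 12956 CPM in the EGFP-negative library alone, border-associated macrophage genes 3537 CPM in the EGFP-positive library, and endothelial and mural genes 3964 CPM in wild-type day 6.

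The EGFP-negative library had 44.1 M counts (M, 1e6) over 15634 genes with a count, and the EGFP-positive library 29.6 M over 13331 genes. The 100 most abundant genes took 32.2% and 37.8% of the counts. Counts from 1 to 20 were even in 85.4% and 90.9% of cases, so intervals were computed on halved counts in case both mates of a fragment had been counted. A library at 0 counts was given a floor of 6 counts, and folds against it are lower bounds.

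Of 7252 genes considered, 546 (7.53%) were higher and 862 (11.9%) were lower with EGFP. These shares are the background for the counts of every list below, and in a short list a few genes decide the share. The median log2 ratio was -0.04 and the median absolute ratio 0.45. At a log2 ratio of 2 or more, 82 genes were higher and 267 lower, and at 3 or more, 21 and 122, so the far end of the distribution lay on the EGFP-negative side. Of the lower genes 41 had under 10 counts in 1 library, of the higher genes 0. No called gene had a counting interval that included 1, but the minimum and the size rule fix this at these depths, so it lends the calls no weight.

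The same rule in either direction called 3.68%, 4.86% and 3.79% of the genes in the 3 pairs of floxed controls, at totals of 11.0 to 13.9 M. These controls differ from the reporter mice in genotype, depth and table, and they were not gated for a reporter. Of the 1408 genes called, 1329 (94.4%) had a ratio farther from 0 than the largest log2 gap between floxed controls. The rest include Rgs5 (ratio -1.82, gap 4.78), Vegfa (-1.09, 2.35), Cfp (-1.12, 1.91) and Hsph1 (-1.10, 1.16).

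**Figure D2:**
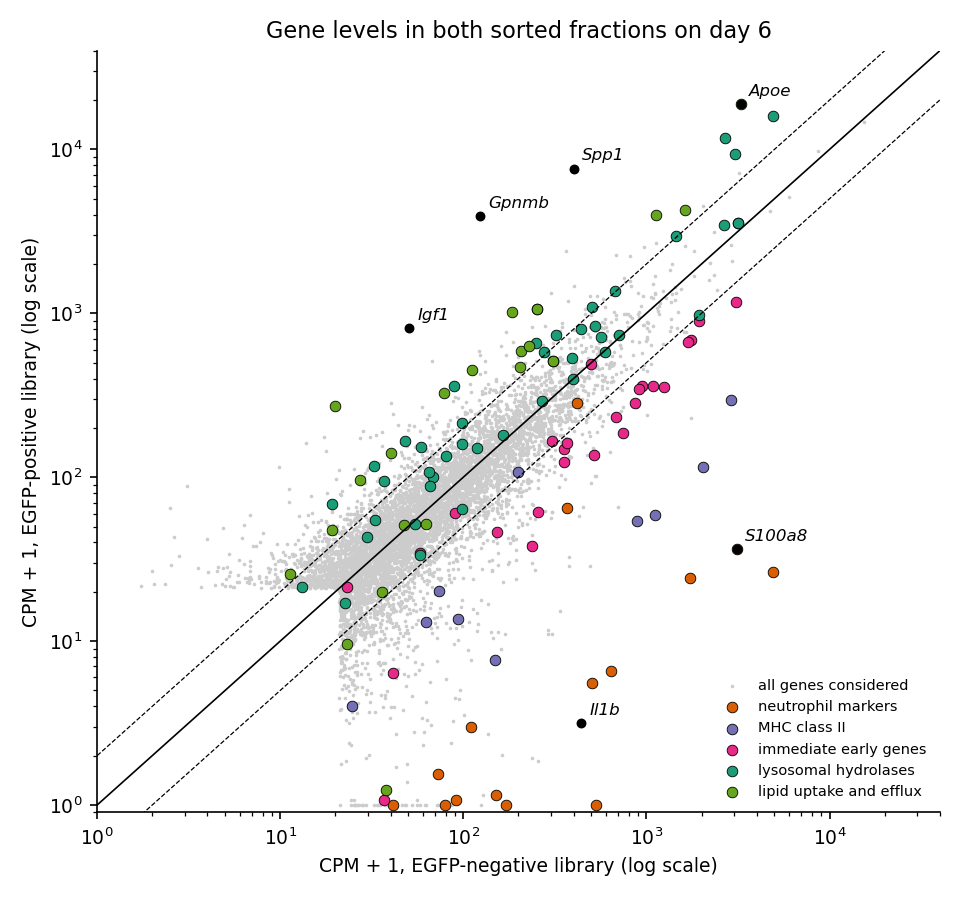
CPM plus 1 of the 7252 genes considered in the EGFP-negative library (horizontal, log scale) against the EGFP-positive library (vertical, log scale), 1 point per gene, with 5 lists coloured, 6 genes labelled, the solid line at equal levels and the dashed lines at a fold of 2 either way. Lysosomal and lipid genes lie along and above the upper dashed line, and neutrophil and MHC class II genes lie far below the lower one.

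Genes of disease-associated microglia were the first group on the EGFP-positive side. All 28 listed were considered, 14 were higher and 2 lower, with a median of 0.97. The list contains Igf1, which the reporter stands for. Gpnmb, a glycoprotein of lysosomes and the cell surface on chr6:49036518-49058182, stood at 123 CPM in the EGFP-negative and 3913 CPM in the EGFP-positive library, 31.9-fold (95% counting interval 30.6 to 33.2) higher, with 0.17 as the largest log2 gap between floxed controls. Spp1, which codes for the secreted matrix protein osteopontin, stood at 399.5 CPM in the EGFP-negative and 7628 CPM in the EGFP-positive library, a log2 ratio of 4.25 beside a floxed control gap of 0.74. Day 1 wild-type cells had 5915 CPM of Spp1 and wild-type day 6 cells 745 CPM. Thus the level of the EGFP-positive library was nearer to that of day 1 than to that of the whole wild-type gate on its own day.

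Apoe, the main lipid carrier made by glia, stood at 3281 CPM in the EGFP-negative and 18823 CPM in the EGFP-positive library, 5.74-fold (95% counting interval 5.69 to 5.79) higher. Its level was 6183 CPM in wild-type day 6, 195 CPM on day 1 and 130.3 CPM in sham, and its largest gap between floxed controls was 0.11. Unlike Spp1, Apoe was low on day 1. Trem2, the receptor that senses lipid and myelin debris, stood at 150.1 against 388 CPM (1.36), while its adaptor Tyrobp at 392 against 432 CPM (0.14) and the lectin gene Clec7a at 279 against 429 CPM (0.62) were not called. The 2 members on the other side were the integrin gene Itgax at 378 against 128 CPM (-1.56) and the chemokine gene Ccl6 at 231 against 55.1 CPM (-2.05). Both Itgax and Ccl6 are also expressed by monocyte-derived cells.

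**Figure D3:**
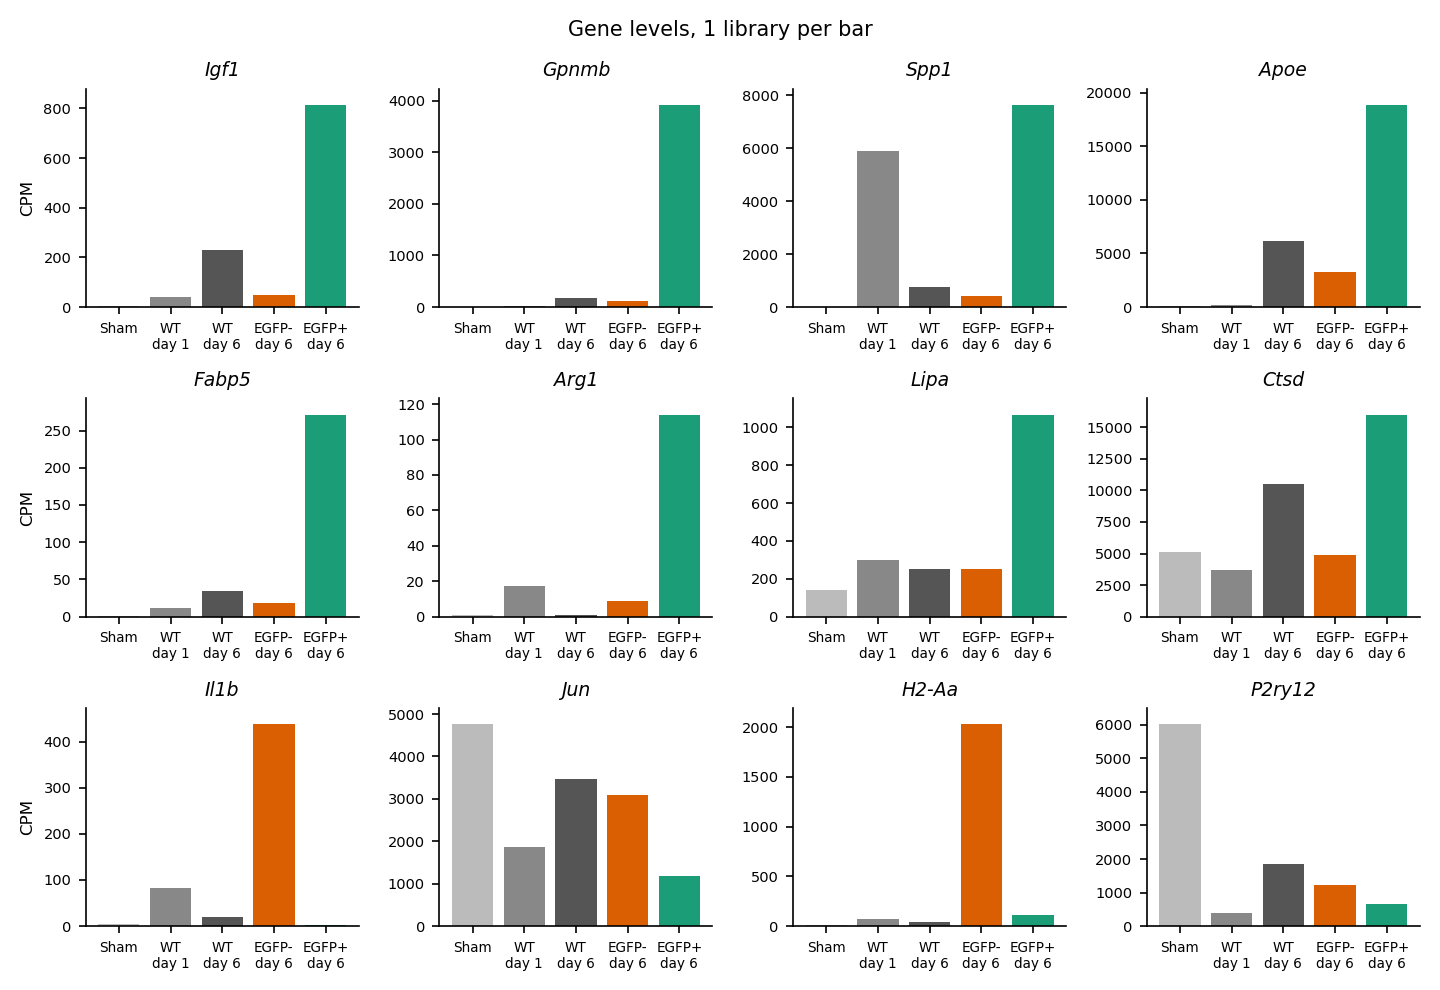
CPM (vertical axis, linear from 0, own scale in each panel) of 12 genes in sham, wild-type (WT) day 1 and day 6, EGFP-negative (EGFP-) and EGFP-positive (EGFP+) libraries, 1 library per bar and so without error bars. Igf1 stood at 813 CPM with and 49.5 CPM without EGFP, and Il1b at 2.16 and 438 CPM.

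Among growth and repair factors and co-receptors, 16 of 32 listed genes were considered, 8 of them higher and 3 lower, with Igf1 itself among the higher. Besides Igf1 and Spp1, the higher ones were Hgf (28.7 against 109 CPM, 1.89), which codes for hepatocyte growth factor, Pdgfc (3.87 against 26.8 CPM, 2.51), the progranulin gene Grn (969 against 2549 CPM, 1.39), Vegfb (10.95 against 28.7 CPM, 1.32) and the co-receptor genes Nrp1 (236 against 826 CPM, 1.80) and Nrp2 (91.9 against 302 CPM, 1.70). Hgf was above its wild-type day 6 level of 13.8 CPM in both fractions. Lower were oncostatin M (Osm, 154 against 33.3 CPM, -2.18), Pdgfb (85.5 against 39.8 CPM, -1.08) and Vegfa (20.9 against 9.27 CPM, -1.09), and the Vegfa call was lost under other scalings or pseudocounts. Tgfb1 stood at 213 against 228 CPM (0.10) and the colony-stimulating factor gene Csf1 at 189 against 115 CPM (-0.71), neither called. Bdnf had 0 counts in both libraries, and the levels of Egf, Fgf2, Lif and Cntf stayed under the minimum.

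Lipid uptake and efflux genes had a median of 1.47 over the 21 considered of 29, with 15 higher and 2 lower. The intracellular fatty acid carrier Fabp5 stood at 18.8 CPM in the EGFP-negative and 271 CPM in the EGFP-positive library (3.78), against 34.5 CPM in wild-type day 6. Lipoprotein lipase (Lpl) stood at 182 against 1015 CPM, a log2 ratio of 2.47. Of scavenger and uptake receptors, those higher included Cd36 at 77.6 against 326 CPM (2.06), Msr1 at 111 against 448 CPM (2.00), Lrp1 at 1618 against 4289 CPM (1.41) and Scarb2 at 205 against 591 CPM (1.52). The scavenger receptor gene Olr1 was lower at 22.2 against 8.54 CPM (-1.28), and Scarb1 was not called (-0.27). Cd36 and Msr1 were above their wild-type day 6 levels of 13.3 and 54.3 CPM in both fractions.

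Several genes of the route that cholesterol takes through lysosomes were higher. Lipa, the acid lipase that frees cholesterol from its esters, stood at 252 against 1068 CPM (4.24-fold (95% counting interval 4.11 to 4.38) higher), Npc1, which exports cholesterol from the lysosome, at 227 against 631 CPM (1.47), and its partner Npc2 at 309 against 509 CPM (0.72, not called). The exporter Abca1 stood at 1122 against 3982 CPM (1.83), Abcg1 at 203 against 469.7 CPM (1.20), and Soat1, which re-esterifies cholesterol, at 343 against 829 CPM (1.27). The droplet coat gene Plin2 stood at 374 against 1180 CPM (1.66), and genes of lipid storage and fatty acid oxidation as a list had 2 of 17 considered higher and 1 lower, with a median of 0.23.

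Genes of cholesterol synthesis and uptake had a median of -0.88 over 8 considered of 24, with 2 lower, among them the regulator gene Srebf2 (69.9 against 30.8 CPM, -1.15), and 1 higher, Dhcr7 (13.3 against 32.9 CPM, 1.24). The synthase gene Hmgcs1 stood at 48.7 against 72.02 CPM (0.56) and was not called. Most of this list was under 20 CPM in both libraries, so it was thinly measured. The oxysterol-making gene Ch25h stood at 18.2 against 46.3 CPM (1.30). The sterol-sensing receptor genes Nr1h2 (0.11) and Nr1h3, at 8.07 against 2.86 CPM under the minimum, were not called.

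Of 43 lysosomal hydrolases and inhibitors considered of 44, 17 were higher and 0 lower (median 0.72), and of 29 lysosomal membrane proteins and proton pump subunits considered of 31, 11 were higher and 0 lower (median 0.80), against 7.53% higher and 11.9% lower over all genes. Scaling by total counts called 1 hydrolase list member lower. The shift was not even across the organelle. Cathepsin B (Ctsb) stood at 2670.4 CPM in the EGFP-negative and 11809 CPM in the EGFP-positive library (2.14) and cathepsin D (Ctsd) at 4902 against 16008 CPM (1.71), whereas cathepsin S (Ctss) at 3144 against 3561 CPM (0.18), cathepsin L (Ctsl) at 562 against 714 CPM (0.35) and cathepsin C (Ctsc) at 594 against 581 CPM (-0.03) were not called.

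Among enzymes that take apart glycolipids and sugar chains, Galc, which breaks down a myelin lipid, stood at 87.5 against 358 CPM (2.02), Galns at 31.6 against 117 CPM (1.85), Sgsh at 18.2 against 67.9 CPM (1.84) and Naglu at 46.7 against 166 CPM (1.81). Psap, the precursor of the saposins that help such enzymes, stood at 3033 against 9329 CPM (1.62). In the membrane, Lamp1 stood at 808 against 2232 CPM (1.47), Lamp2 at 821 against 1467 CPM (0.84, not called), Cd63 at 169.7 against 768 CPM (2.17) and Cd68 at 298 against 1325 CPM (2.15). Of the proton pump, the subunit genes Atp6v0d2 (3.53 against 25.6 CPM, 2.55), Atp6v1a (187 against 473 CPM, 1.34) and Atp6v0a1 (115 against 242 CPM, 1.07) were higher, and the other subunits considered ran from -0.68 (Atp6v1f) to 0.93 (Atp6v1b2).

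Regulators of lysosome genes were measured as well. Tfeb stood at 27.4 against 16.9 CPM (-0.67), Tfe3 at 75.9 against 73.9 CPM (-0.04) and Mitf at 85.7 against 162 CPM (0.91), none called. Genes around the nutrient sensor on the lysosome surface were higher in part, the folliculin partner Fnip2 at 186 against 664 CPM (1.83) and the small GTPase gene Rragd at 5.86 against 25.6 CPM (1.95), and the receptor gene Rxra stood at 44.8 against 115 CPM (1.34). Transcript levels do not show where these factors sit in the cell.

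The CLEAR element is the sequence that TFEB and its relatives are known to bind, and its palindromic core TCACGTGA was searched in the 250 bases before each start in the RefSeq promoter table of GRCm38.p6. It was found in 0.785% of 32851 promoters and in 0.907% of 27025 genes, and since the core reads the same on both strands, 1 search covers both. Of 75 genes on the 2 lysosome lists, 60 matched the promoter table, 5 had the core and 4 of these, Ctsa (1.11), Ctsd, Mcoln1 (1.44) and Atp6v1a, were higher, while Gla was not called (0.68). Of the 60 matched genes 22 were called and 38 not. A match is a description and no evidence of binding. For Ctsd, minus strand, chr7:142387889-142387956, and Mcoln1, the calcium channel of the lysosome, plus strand, chr8:3500443-3500510, the windows around the core are shown because both lie wholly before the gene, with the core in capitals.
Ctsd: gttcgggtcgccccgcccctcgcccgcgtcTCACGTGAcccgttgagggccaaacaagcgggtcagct
Mcoln1: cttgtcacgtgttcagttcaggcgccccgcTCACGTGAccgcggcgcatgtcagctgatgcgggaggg

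The core begins 99 bases before the start in Ctsd and 46 bases before it in Mcoln1. Gpnmb, Lipa and Galc, which had some of the highest ratios on these lists, did not hold the core in this window.

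Receptors and bridging proteins for dying cells were higher in part, 8 of 22 considered against 1 lower (median 0.45). The scavenger receptor gene Stab1 stood at 364 CPM in the EGFP-negative and 2392 CPM in the EGFP-positive library (6.56-fold (95% counting interval 6.398 to 6.73) higher), Gas6, a bridge between dying cells and TAM receptors, at 58.4 against 265 CPM (2.16), the milk fat globule gene Mfge8 at 13.8 against 39.9 CPM (1.46) and the integrin gene Itgav at 337 against 779 CPM (1.20). The TAM receptor genes themselves, Mertk (325 against 476 CPM, 0.55) and Axl (298 against 333 CPM, 0.16), were not called. Anxa1, an annexin abundant in neutrophils, was the lower member at 426 against 57.2 CPM (-2.88). Stab1 is also on the border-associated macrophage list, whose summed levels differed as given above.

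Of 21 genes of Fc and ITAM receptors 1 was higher and 3 were lower, shares near those over all genes (7.53% and 11.9%). Fcgr3 stood at 334 against 332 CPM, Syk at 315 against 295 CPM and Fcer1g at 489 against 828 CPM (0.76), while Trem1 (100.4 against 2.55 CPM, -4.84) and Clec4e (168 against 10.05 CPM, -3.94), both known from neutrophils and monocytes, were lower. Of 20 Toll-like receptor genes and adaptors, the endosomal receptor gene Tlr8 was higher at 96.7 against 267 CPM (1.46) and the adaptor gene Myd88 lower at 69.2 against 18.4 CPM (-1.86). Tlr2 (-0.90), Tlr4 (0.34), Tlr7 (0.47) and Tlr13 (0.73) were not called.

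Complement genes went both ways. The C1q chains C1qb (578 against 1216 CPM, 1.07) and C1qc (750.1 against 1652 CPM, 1.14) and the receptor gene C3ar1 (403 against 1464 CPM, 1.86) were higher, with C1qa just below the size rule (0.84). C3, the central component, stood at 244 against 54.4 CPM (-2.14) and properdin (Cfp) at 66.1 against 29.8 CPM (-1.12), both lower. The integrin gene Itgam, which codes for CD11b, the marker of the sort, stood at 1353 against 926 CPM (-0.55, not called). In all, 3 of 13 considered were higher and 4 lower, beside 7.53% and 11.9% over all genes considered.

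Inflammatory mediators lay on the EGFP-negative side. All 8 cytokine and related genes considered, of 22 listed, were lower (median -1.93). Another 9 listed genes had 0 counts with EGFP. They were under the minimum without EGFP too, at 7.55 CPM (Nos2) or less, and Csf2 had 0 counts in both. Il1b, on chr2:129364569-129371164, stood at 438 CPM in the EGFP-negative and 2.16 CPM in the EGFP-positive library (17650 against 56.0 counts), 203-fold (95% counting interval 140.1 to 305) lower. Its wild-type day 6 level was 20.1 CPM and its day 1 level 83.7 CPM, both between the reporter states, and floxed controls were up to 1.84 apart. The other interleukin 1 gene Il1a stood at 115 against 47.9 CPM (-1.24), the inhibitor Il1rn at 39.01 against 9.27 CPM (-1.96), the inflammasome gene Nlrp3 at 201 against 53.5 CPM (-1.89), the prostaglandin synthase gene Ptgs2 at 153 against 28.2 CPM (-2.40) and Tnf, just past the size rule, at 129.6 against 64.1 CPM.

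Of 10 chemokine genes considered, 8 were lower and 1 higher. Cxcl2, which draws neutrophils, stood at 335 against 14.3 CPM (-4.46), the interferon-induced Cxcl10 at 90.1 against 10.97 CPM (-2.93), Ccl9 at 192 against 30.4 CPM (-2.62), Ccl3 at 891 against 269 CPM (-1.72) and Ccl4 at 330 against 85.5 CPM (-1.94). Ccl3 and Ccl4 have close relatives, so their counts may share reads. The higher member was Pf4, at 0.993 against 25.6 CPM (3.74), which is on the border-associated macrophage list too. Wild-type day 6 cells had 793 CPM of Ccl3 and 375 CPM of Ccl4, near the EGFP-negative levels.

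Genes of NF-kappaB subunits, their kinases and feedback regulators were lower in 11 of 16 considered, with 0 higher and a median of -1.24. Among the feedback regulators, which the factor is known to induce, Nfkbia stood at 508 against 149 CPM (-1.76), Nfkbiz at 766 against 177 CPM (-2.11), Nfkbie at 54.8 against 8.35 CPM (-2.58) and Tnfaip3 at 553 against 229 CPM (-1.27). The subunit gene Rela was not called (-0.25), and the subunit gene Nfkb1 (-1.28) and the kinase gene Ikbkb (-1.21) were lower. Wild-type day 6 levels of Nfkbia (454 CPM), Nfkbiz (481 CPM) and Tnfaip3 (521 CPM) lay between both fractions.

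Interferon-stimulated genes were lower in 20 of 32 considered and higher in 0 (median -1.14). Ifitm3 stood at 235 against 29.1 CPM (-2.97), Mx1 at 112 against 22.8 CPM (-2.25), Oas3 at 68.96 against 11.98 CPM (-2.43) and Irf7, a regulator of the response, at 85.6 against 39.02 CPM (-1.11). MHC class I was less uneven, with 4 of 13 lower and 0 higher, led by the peptide transporter gene Tap1 (91.4 against 29.7 CPM, -1.59), while B2m (-0.16) and H2-K1 (-0.38) were not called. The class I genes H2-Q6, H2-Q7 and H2-T22 had 0 counts in both libraries and belong to families of near copies, so their reads may not have been counted.

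MHC class II genes, which present antigen to T cells, were lower in 9 of 11 considered, with a median of -2.78. H2-Aa stood at 2029 CPM in the EGFP-negative and 114 CPM in the EGFP-positive library (-4.14), H2-Ab1 at 891 against 52.9 CPM (-4.05), the invariant chain Cd74 at 2886 against 296 CPM (-3.28) and the master regulator Ciita at 148 against 6.68 CPM (-4.27). Wild-type day 6 cells had 40.5 CPM of H2-Aa and 78.3 CPM of Cd74, below both fractions. The dendritic cell genes Flt3 and Cd209a moved with this group, at 124 and 61.01 CPM without EGFP and 0 counts with it, at least 534-fold and 263-fold lower. How much of the class II difference lay in such cells was not tested.

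**Figure D4:**
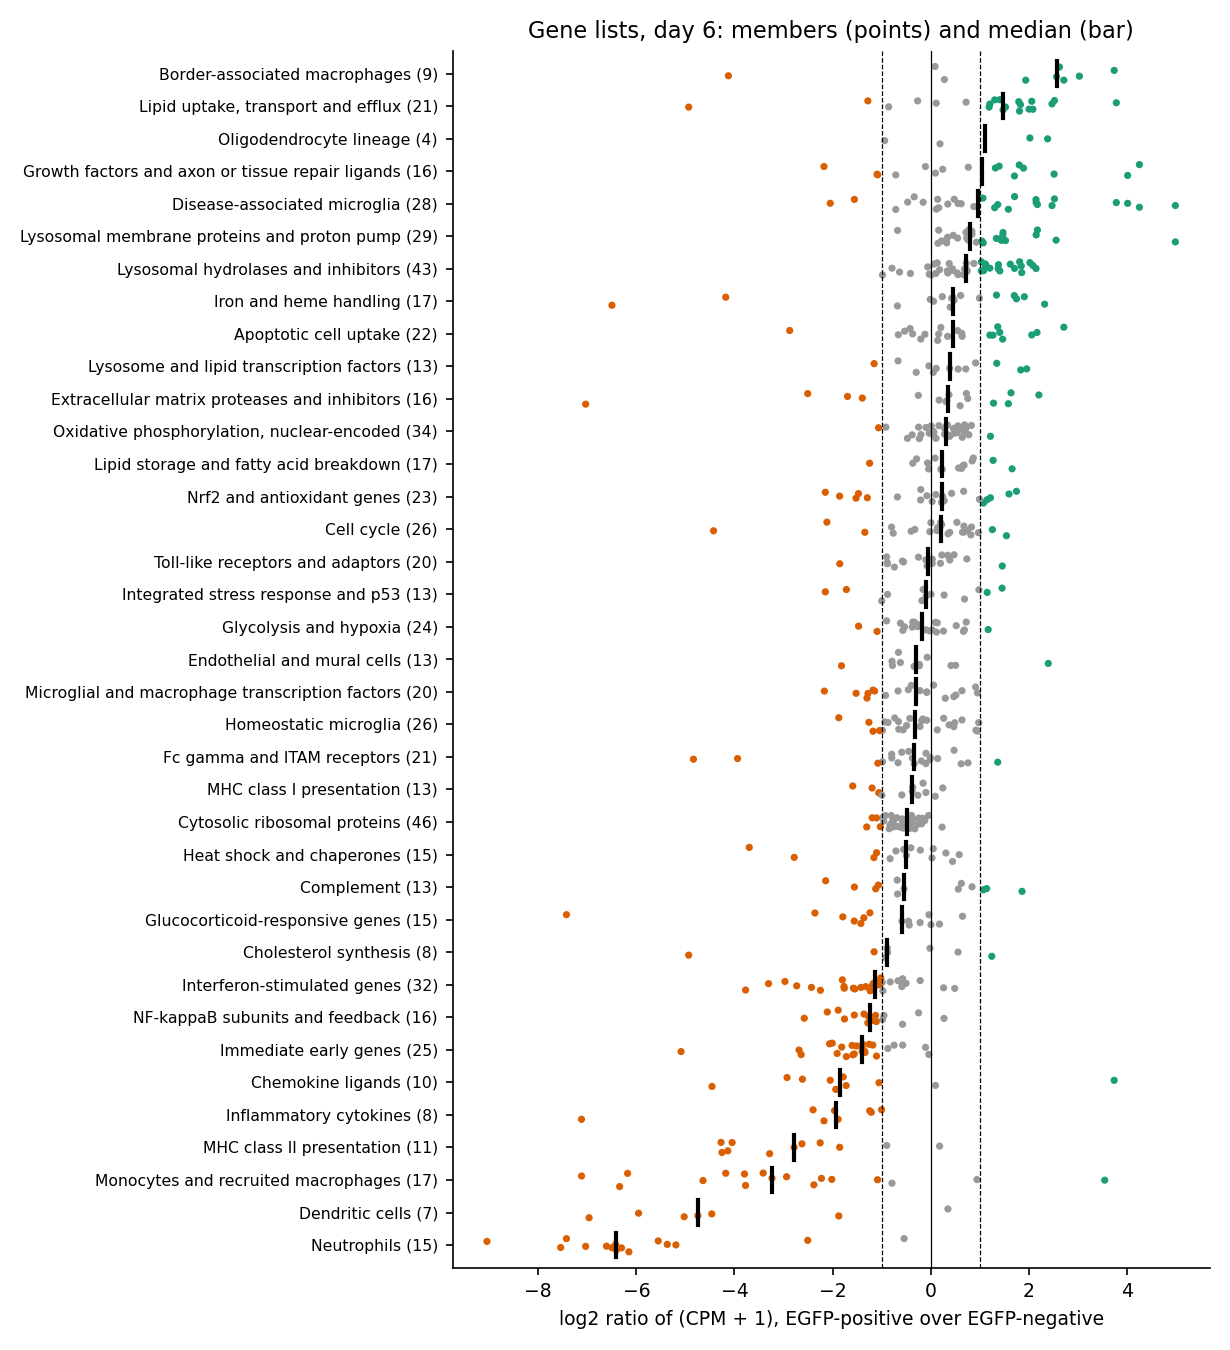
Log2 ratio of CPM plus 1, EGFP-positive over EGFP-negative (horizontal axis), of the members considered in each list with at least 4 of them (rows, number in brackets), with members called higher in green, lower in orange and not called in grey, the list median as a black bar and dashed lines at -1 and 1. Medians ran from -6.41 for neutrophil genes to 2.56 for border-associated macrophage genes, with 1.47 for lipid uptake and -1.40 for immediate early genes.

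Immediate early genes, which cells switch on within minutes of a stimulus, were lower in 20 of 25 considered and higher in 0 (median -1.40). Jun stood at 3098 CPM in the EGFP-negative and 1175 CPM in the EGFP-positive library (2.64-fold (95% counting interval 2.59 to 2.68) lower), Fos at 1754 against 685 CPM (-1.35), Egr1 at 945 against 360.3 CPM (-1.39), Junb at 513 against 136 CPM (-1.91) and Nr4a1 at 237 against 37.1 CPM (-2.64). Klf6 was lower (1940.3 against 901 CPM, -1.11), as was Klf2 (682 against 231 CPM, -1.56), a factor known to hold inflammatory genes down in myeloid cells. Jun (3459.7 CPM), Fos (1762 CPM), Egr1 (1425 CPM) and Klf2 (1109 CPM) were at least as high in wild-type day 6 as in the EGFP-negative library, whereas Nr4a1 (67.02 CPM), Fosl2 (56.3 against 151 CPM) and Zfp36l2 (467 against 914 CPM) were lower there. The summed level of the list was 18307 CPM without and 7044 CPM with EGFP, and 18691, 14148 and 19352 CPM in sham, day 1 and day 6 wild-type cells, so the EGFP-positive library was the low one of the 5.

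The cyclic AMP response element TGACGTCA, the site of the factor CREB and a palindrome as well, was searched in the same 250 bases. It was found in 1.55% of promoters and 1.77% of genes, and in 2 of the 24 immediate early genes that matched the table, Dusp1 (1080.2 against 359 CPM, -1.59), a phosphatase of MAP kinases, and Btg2 (743 against 184 CPM, -2.01), both lower. Of the 24 matched genes 17 were called and 7 not. The windows lie on the minus strand at chr17:26508578-26508645 and chr1:134079284-134079351 of GRCm38.p6, from RefSeq, and show the element in capitals with its surroundings.
Dusp1: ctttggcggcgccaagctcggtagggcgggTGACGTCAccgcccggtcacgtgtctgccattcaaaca
Btg2: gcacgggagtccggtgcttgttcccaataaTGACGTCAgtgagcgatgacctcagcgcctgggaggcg

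The element begins 143 bases before the start in Dusp1 and 166 bases before it in Btg2.

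Heat shock genes were lower in 4 of 15 considered and higher in 0, beside 11.9% lower and 7.53% higher over all genes considered. Hspa1a stood at 450 against 64.6 CPM (-2.78) and Hspa1b at 374 against 27.9 CPM (-3.70), near copies whose reads may be shared, Dnajb1 at 96.05 against 42.5 CPM (-1.16) and Hsph1 at 68.4 against 31.3 CPM (-1.10). The chaperones of the endoplasmic reticulum Hspa5 (0.02) and Hsp90b1 (0.44) were not called. Glucocorticoid-responsive genes were lower in 7 of 15 considered and higher in 0, among them Per1 (204 against 75.5 CPM, -1.42), Txnip (484 against 187 CPM, -1.36) and Tsc22d3 (225 against 94.8 CPM, -1.24). Fkbp5 (-0.22) and Sgk1 (-0.04), other known targets of the hormone receptor, were not called.

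Few genes of energy metabolism were called, beside 7.53% higher and 11.9% lower over all genes considered. Of 34 nuclear genes of oxidative phosphorylation 1 was higher and 1 lower (median 0.30), and of 24 genes of glycolysis and hypoxia 1 was higher and 2 lower (median -0.18). Gapdh stood at 419 against 692 CPM (0.72) and Hif1a at 629 against 681 CPM (0.11). Of 46 ribosomal protein genes, 4 were lower and 0 higher, with a median of -0.49. The share of lower genes was not above the 11.9% over all genes considered, and Rps28 lost its call under other scalings. Cell cycle genes were called about as often as all genes, with 2 of 26 higher and 3 lower. The proliferation marker Mki67 stood at 382 against 611 CPM (0.68) and Top2a at 118 against 150.3 CPM (0.35), neither called, against 18.7 CPM of Mki67 in sham, while the cyclin genes Ccnd2 (93.6 against 3.4 CPM, -4.43) and Ccnd3 (54.3 against 11.7 CPM, -2.12) were lower.

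Of 17 genes of iron and heme handling considered, 5 were higher and 2 lower. The ferritin light chain Ftl1 stood at 678 against 2275 CPM (1.75), the heme transporter gene Slc48a1 at 12.6 against 49.8 CPM (1.91) and the biliverdin reductase gene Blvrb at 7.598 against 26.97 CPM (1.70), and the 2 lower members, Lcn2 and Hp, are neutrophil and monocyte genes. Hmox1, which opens the heme ring, stood just under the size rule at 120.5 against 241 CPM (0.99). Antioxidant genes had 5 of 23 higher and 5 lower. The glutathione synthesis genes Gclm (16.8 against 52.6 CPM, 1.59) and Gclc (41.6 against 88.7 CPM, 1.07) were higher, and the cystine transporter gene Slc7a11 (48.7 against 10.2 CPM, -2.15) and the oxidase subunit gene Ncf4 (78.8 against 21.02 CPM, -1.86) lower.

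Matrix proteases went both ways, 4 of 16 higher and 4 lower, beside 7.53% and 11.9% over all genes considered. Mmp12 (11.6 against 57.2 CPM, 2.20), the macrophage elastase, Mmp14 (66.3 against 208 CPM, 1.63) and the inhibitor Timp2 (279.8 against 839 CPM, 1.58) were higher. Mmp9 (150.2 against 0.155 CPM, -7.03) and Mmp8 (368 against 63.9 CPM, -2.51), stored in neutrophil granules, and the urokinase receptor gene Plaur (106 against 31.9 CPM, -1.70) were lower. Of 20 transcription factor genes of microglia and macrophages, 6 were lower and 0 higher. Cebpb (186 against 40.6 CPM, -2.17), Smad3 (90.4 against 30.8 CPM, -1.52), Bhlhe40 (232 against 93.8 CPM, -1.30) and Id2 (635 against 287 CPM, -1.14) were among the lower, and Spi1 (-0.40), Irf8 (-0.08) and Maf (0.95) were not called.

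Beyond the lists, the 15 highest log2 ratios included 2 gene models with no protein name and 13 named genes. Next to Gpnmb, Spp1, Igf1, Fabp5 and Pf4 these were Cd5l (2.09 against 87.9 CPM, 4.85), a secreted scavenger protein of macrophages, Cdo1 (1.61 against 42.04 CPM, 4.04), which oxidises cysteine, and the arginase gene Arg1 (8.86 against 114 CPM, 3.54). The creatine transporter gene Slc6a8 (12.8 against 159.8 CPM, 3.54), the coagulation factor gene F7 (0.745 against 20.6 CPM, 3.63), Cd109 (1.79 against 31.9 CPM, 3.56), Nlrc3 (1.51 against 28.3 CPM, 3.54) and Stra6l (2.98 against 41.1 CPM, 3.40) completed them. F7 dropped under 20 CPM with other scalings, and most of these genes were low in the EGFP-negative library. Arg1 was at 0.938 CPM in wild-type day 6 and 17.4 CPM on day 1, below the EGFP-positive level in both.

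The 15 lowest ratios included 1 unnamed model and 14 named genes, most of them known from neutrophils and monocytes. Retnlg stood at 526 CPM without EGFP and had 0 counts with it, at least 2271-fold lower, and Il1r2 at 171 CPM against 0 counts, at least 736-fold lower. S100a9 stood at 4937 against 25.5 CPM (-7.54), S100a8 at 3106 against 35.2 CPM (-6.42), Ltf at 639 against 5.56 CPM (-6.61), Lcn2 at 501 against 4.56 CPM (-6.50) and Cxcr2 at 90.3 against 0.0773 CPM, the last with 2.00 counts. Plac8 (-7.12), Ifitm6 (-6.94), Adgre4 (-6.80) and Stfa2 (-6.44) were among the others, along with Il1b, Mmp9 and Flt3 described above. In wild-type day 6, S100a9 stood at 136 CPM, S100a8 at 73.0 CPM and Retnlg at 3.89 CPM, nearer to the EGFP-positive library.

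By list, 14 of 15 neutrophil genes considered were lower and 0 higher (median -6.41), and 14 of 17 monocyte genes lower and 1, Arg1, higher (median -3.24). Ccr2, the receptor that brings monocytes in, stood at 698 against 64.5 CPM (-3.42), Chil3 at 1751 against 228 CPM (-2.94) and Vcan at 290.1 against 10.7 CPM (-4.64). The EGFP-positive library was still above wild-type day 6 for Ccr2 (14.2 CPM) and Chil3 (39.7 CPM). Thbs1 (814 against 1564 CPM) and the border macrophage gene F13a1 (392 against 416 CPM) were not called between the reporter states but lay above wild-type day 6 (129.7 and 18.8 CPM) in both. Csf3r, listed for neutrophils and also expressed by microglia, stood at 414 against 284 CPM (-0.54).

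Of the border-associated macrophage list, 6 of 9 considered were higher and 1 lower. Ms4a7 stood at 16.8 against 144 CPM (3.03), Folr2 at 3.58 against 27.2 CPM (2.62), Cd38 at 40.1 against 242 CPM (2.56) and Siglec1 at 52.5 against 204 CPM (1.93). The lower member was the lectin gene Clec10a at 58.2 against 2.396 CPM (-4.12), the ratio farthest from 0 on the list. The mannose receptor gene Mrc1, a defining marker, was not called at 49.4 against 60.2 CPM (0.28), Lyve1 (1.19 against 2.24 CPM) and Cd163 (7.05 against 17.97 CPM) stayed under the minimum, and Cd209f had 0 counts in both. None of the 15 T, B and NK cell genes in the table reached 20 CPM, and Cd3d, Cd3e and Cd3g had 0 counts with EGFP. Endothelial genes were similar in both fractions (1 of 13 higher, 1 lower, 769.9 against 612 CPM) and higher in wild-type day 6 (3964 CPM).

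The wild-type day 6 library came from other mice and was not gated for EGFP. Its level lay between both fractions for 38.0% of the genes considered. Among genes higher with EGFP it lay between for 396 of 546 (72.5%), above both for 28 (5.13%) and below both for 122 (22.3%). Among lower genes it lay between for 513 of 862 (59.5%), above both for 153 (17.7%) and below both for 196 (22.7%), and among genes not called between for 31.6%. A wider gap leaves more room for another value, so the first shares are larger for called genes by construction. Genes below both fractions among those named include Cd36, Tlr8, Hgf, H2-Aa and Cd74.

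On day 14 the reporter states were compared in another table, from another sequencer, where 795 of 7085 genes considered (11.2%) were higher and 772 (10.9%) lower. Of the 546 genes higher on day 6, 365 were considered on day 14, and 57 of these were higher and 30 lower there. Of the 862 lower on day 6, 510 were considered, and 51 were lower and 77 higher. Side by side, the log2 ratio of Plin2 was 1.66 on day 6 and 1.43 on day 14, followed by 2.14 and 0.95 for Ctsb, 2.17 and 0.85 for Cd63 and 2.15 and 0.59 for Cd68. They were 2.71 and -0.27 for Stab1, -6.42 and 6.86 for S100a8 and -4.14 and 1.43 for H2-Aa. S100a8 and H2-Aa thus lay on the EGFP-negative side on day 6 and on the EGFP-positive side on day 14, a difference between single libraries that was not tested. On day 14, S100a8 had 0 counts in the EGFP-negative library, so that ratio depends on the pseudocount.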

How the data were processed

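RNA of sorted cells was measured by sequencing of libraries made with an Ovation SoLo kit, read on HiSeq (days of this comparison) and NovaSeq (reporter libraries of day 14), per the labels' protocols. Tools and builds given in the submitters' processing notes are featureCounts, STAR, edgeR, GRCm38 and mm10, and their roles, versions and annotation are not given in the sources used here. The 2 tables with reporter libraries hold whole read counts per gene as deposited by the authors, and the table of floxed controls holds deposited expected counts that are not all whole and were rounded. In all, 0 columns were left unused, and 27 genes with date-like names stayed in library sizes and were not named.

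Groups came from the sample titles. Counts were scaled to CPM with edgeR 4.0.16 (R 4.3.3) TMM factors over the 7 libraries of the table, for scaling only, and compared as log2 of CPM plus a pseudocount of 1, which understates differences of low genes. Fold intervals are exact conditional binomial (Clopper-Pearson, 95%, scipy 1.17.1) on halved counts and cover counting error only. The procedure was tested on simulated data. The 40 gene lists and all rules were chosen with earlier results of these data known. Named are 10 fixed genes, the 15 highest and 15 lowest ratios, and per list up to 6 called members with the largest ratios and the 2 most abundant. List members named beyond this were chosen after their values were seen. Positions are RefSeq GRCm38.p6. Alternatives covered scaling, pseudocount, minimum and size rule. Some list members that were counted are not reported here by name.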

Additional observations from a re-analysis of the deposited data

Results flagged for a closer look

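For 25 of the 228 named genes, considered on both days, the day 6 and day 14 log2 ratios of EGFP-positive over EGFP-negative were past the size rule in opposite directions. Each day has 1 library per reporter state, the days stand in separately scaled tables from different sequencers, and the difference between the days was not tested. Each pair of values below gives day 6 and then day 14. Other named genes were past the size rule in the same direction on both days. They include Igf1 (4.01 and 1.51), Gpnmb (4.98 and 1.85), Apoe (2.52 and 1.58), Lpl (2.47 and 1.68) and Fabp5 (3.78 and 1.69). Of all genes higher on day 6, 57 were higher and 30 lower on day 14, and of those lower, 51 were lower and 77 higher.

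Genes known from neutrophils were lower with EGFP on day 6 but higher with it on day 14: S100a8 (-6.42 and 6.86), S100a9 (-7.54 and 7.11), Ltf (-6.61 and 7.84), Lcn2 (-6.50 and 5.44), Cd177 (-6.18 and 6.16), Il1r2 (-7.42 and 2.09) and Anxa1 (-2.88 and 6.04). The MHC class II genes H2-Aa (-4.14 and 1.43) and H2-Ab1 (-4.05 and 1.82) and the interferon-stimulated genes Ifitm3 (-2.97 and 1.68), Mx1 (-2.25 and 2.62), Oas3 (-2.43 and 4.61) and Oasl1 (-3.31 and 4.92) had the same order, as did the immune genes C3 (-2.14 and 3.30), Ccl6 (-2.05 and 1.37), Ccl9 (-2.62 and 2.18), Itgax (-1.56 and 2.62) and Plaur (-1.70 and 1.17). Further genes with this order were Bhlhe40 (-1.30 and 2.47), Nr4a1 (-2.64 and 2.02), Hsph1 (-1.10 and 1.22) and Dgat1 (-1.25 and 1.06). The 3 genes with the opposite order, higher on day 6 and lower on day 14, were Fnip2 (1.83 and -1.46), Lamp1 (1.47 and -1.02) and Timp2 (1.58 and -1.54). On day 14, S100a8, S100a9, Ltf, Lcn2, Cd177, Anxa1, Oas3 and Oasl1 had 0 counts in the EGFP-negative library, so their day 14 ratios rest on the EGFP-positive library and the pseudocount.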

How the results depend on the processing

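The counts of genes higher and genes lower moved most with the thresholds. A size rule of log2 2 gave 82 and 267, so 23.5% were higher against 38.8% at log2 1. A minimum of 5 CPM gave 981 and 1575, 50 CPM 325 and 486, and no minimum 1499 and 2590, where low counts enter. Under the other scalings, pseudocounts and minimums the counts stayed between 397 and 630 higher and between 664 and 886 lower, the lowest values coming from a 20 CPM minimum in the wild-type day 6 library, which takes no part in the contrast. No scaling shifted the median log2 ratio by more than 0.07. Of 184 named genes called, 172 kept their call under every scaling and pseudocount tried. Those that lost it under at least 1 were H2-T23, Nlrc5, Rps28, Selplg, Vegfa, Zbtb16, F7, Kif20a, Steap3, Ube2c, Cycs and Oasl1, by a ratio close to 1 or a level close to 20 CPM. With no minimum the median of the growth factor list was -0.03 against 1.04. No named ratio reversed. No paired analysis was possible because each reporter state has 1 library on day 6, and for the same reason no library could be left out.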

Other observations

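Traces of neural and glial RNA also differed between the fractions. The proteoglycan gene Cspg4 of oligodendrocyte precursors and pericytes stood at 13.8 against 76.1 CPM (2.38) and the noncoding RNA gene Meg3 at 3.87 against 47.99 CPM (3.33), negative before positive. The neuronal genes summed to 7.45 CPM without and 68.7 CPM with EGFP, beside 64.4 CPM in wild-type day 6, and the astrocyte genes to 121 and 78.2 CPM. Slc1a3 alone made up 109.6 and 44.9 CPM of these astrocyte sums, and 152 of 163 CPM in sham. The astrocyte gene Slc1a2 had the other order at 3.40 against 17.2 CPM, under the minimum. Meg3 is on the neuronal list and made up 3.87, 47.99 and 20.3 CPM of the neuronal sums. Its largest log2 gap between floxed controls was 1.66. The myelin gene Mbp went the other way, at 106 against 54.9 CPM (-0.94). The collagen gene Col1a2 was higher at 4.97 against 30.4 CPM (2.39) and the pericyte gene Rgs5 lower at 24.4 against 6.18 CPM (-1.82). Floxed controls were up to 0.70 apart for Col1a2 but up to 4.78 for Rgs5, more than its ratio. Rgs5 stood at 345 CPM in wild-type day 6.

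Of genes for integrated stress and p53 responses, 2 of 13 considered were higher and 2 lower, beside 7.53% and 11.9% over all genes considered. With so few members these counts are not read as a result about the list. The phosphatase regulator gene Ppp1r15a stood at 339 against 102 CPM (-1.72), Ccng1 at 124 against 276 CPM (1.15) and the one-carbon enzyme gene Shmt2 at 8.34 against 24.6 CPM (1.45). The glycolytic gene Pfkp stood at 44.2 against 15.3 CPM (-1.47) and Pkm at 448 against 721 CPM (0.69, not called).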
